A study of Mus musculus with 41 samples.

Results

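The 30 genes described here make cholesterol and fatty acids or set how strongly those enzymes are transcribed. They were taken by symbol from the count tables of 51410 mouse genes: 8 genes of the mevalonate pathway, 11 of the steps from squalene to cholesterol, 5 regulators of the sterol-responsive transcription factors, the sterol carrier Stard4 and 5 genes of fatty acid synthesis. All 30 passed the filter on low counts that left 15850 genes for testing. The study measured RNA in embryonic stem cells (ESCs) of the wild-type (WT) R1 line and in Caprin1 knockout (KO) clones 2 and 4, so that each knockout group is 1 clone. CAPRIN1 binds RNA in the cytoplasm and joins stress granules. Every group had been kept for 4 days in medium with 1 µM retinoic acid and without LIF, the cytokine that holds ESCs in pluripotency, and then received 2 µg/ml α-amanitin, which blocks RNA polymerase II, for 0, 2, 4 or 8 h. There were 4 WT libraries at each time, 2 of clone 2 at each time, and 2 of clone 4 at 2, 4 and 8 h but 1 at 0 h, 31 libraries in all.

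Cholesterol is built from acetyl-CoA through mevalonate, farnesyl pyrophosphate, squalene and lanosterol. The membrane-bound factors SREBP1 and SREBP2, encoded by Srebf1 and Srebf2, switch these genes on: when sterols are scarce, SCAP escorts the factors to the Golgi, where they are cut and released to the nucleus, and when sterols are plentiful, INSIG1 and INSIG2 hold SCAP in the endoplasmic reticulum. Stem cells need both products for new membranes, and SREBP1 is best known for fatty acid genes and SREBP2 for cholesterol genes.

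Depth ranged from 3.46 to 31.57 M counts per library (M, mega), and the median at 0, 2, 4 and 8 h was 19.49, 7.03, 8.04 and 8.72 M. Each time point was deposited as its own table, so time and table cannot be told apart. Caprin1 itself was at 834 to 1204 CPM (counts-per-million values) in the 16 WT libraries and at 104 to 174 CPM in the 8 libraries of clone 2, but at 971 to 1169 CPM in the 7 libraries labelled KO clone 4, inside the WT range. By the level of this transcript clone 4 cannot be told from WT, and these data hold no protein level to check the label. Clone 4 stands below for the libraries labelled KO clone 4. Pluripotency and endoderm markers were both present: Pou5f1 averaged 86.8 CPM and Gata4 237.6 CPM in WT at 0 h. The 6 retinoic acid response markers summed to 634 to 664 CPM at 0 h and to 110.5 to 123 CPM at 8 h in WT. Nothing in the labels says that replicates came from separate cultures, so p-values measure the spread between these libraries, which may be technical. All levels are relative to the other RNA in a library, and less RNA per cell cannot be told apart from fewer cells. A rise or fall over α-amanitin below is a change relative to that RNA. More of a transcript cannot be told apart from a slower loss of it than of other RNA. Among the WT libraries at 0 h, replicates 1 and 2 differed from replicates 3 and 4 for several of the 30 genes. Where a call over time in WT named below turned on the pair, the value of the pair that changed it is given. Comparisons of a clone with WT were not refitted on the pairs, so their dependence on the pair is not known.

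The stretch just before the start site is where SREBPs usually act, beside NF-Y and Sp1, which is why 4 such stretches are shown: Idi1 and Hmgcs1 had the highest rises of the mevalonate genes at 8 h in WT, Msmo1 that of the later sterol genes, and Fasn is the central fatty acid enzyme. Each run is the 180 bases before a RefSeq start site on GRCm38.p6, read 5′ to 3′ on the gene's strand. Capitals mark CCAAT or its reverse ATTGG, the NF-Y box, and the sterol element core TCACNCCAC.
Hmgcs1, chr13:119690171-119690350, plus strand: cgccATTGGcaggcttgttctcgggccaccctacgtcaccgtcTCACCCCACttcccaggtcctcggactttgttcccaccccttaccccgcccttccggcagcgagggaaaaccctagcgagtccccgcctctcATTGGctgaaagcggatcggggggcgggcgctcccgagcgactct
Idi1, chr13:8885426-8885605, plus strand: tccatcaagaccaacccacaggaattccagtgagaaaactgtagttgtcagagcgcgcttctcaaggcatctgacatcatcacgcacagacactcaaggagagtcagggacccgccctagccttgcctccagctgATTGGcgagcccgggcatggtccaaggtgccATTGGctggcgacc
Msmo1, chr8:64733579-64733758, minus strand: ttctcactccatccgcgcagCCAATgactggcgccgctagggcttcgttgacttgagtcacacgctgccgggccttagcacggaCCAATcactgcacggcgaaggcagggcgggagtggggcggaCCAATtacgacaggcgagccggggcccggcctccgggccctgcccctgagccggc
Fasn, chr11:120824548-120824727, minus strand: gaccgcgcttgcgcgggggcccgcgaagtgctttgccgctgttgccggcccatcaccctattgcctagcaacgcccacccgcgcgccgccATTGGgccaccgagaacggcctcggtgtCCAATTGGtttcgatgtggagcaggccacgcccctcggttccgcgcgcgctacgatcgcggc

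The Hmgcs1 stretch carries the sterol core, TCACCCCAC, between a pair of NF-Y boxes, and the other 3 stretches hold NF-Y boxes without that core. Promoter windows from 250 bases before to 50 after the start were on file for 24 of the 30 genes. The NF-Y box CCAAT, searched on both strands, was in the windows of 21 of these 24 genes (87.5%), against 41.1% of the 27025 genes of the RefSeq table and 42.9% of its tested genes. The Sp1 box GGGCGG was in 20 of 24 (83.3%), against 38.2% of all and 67.3% of tested genes. The E-box CACGTG, which is its own reverse complement, was in 5 (20.8%, against 8.09% and 11.5%). The core TCACNCCAC was in Hmgcs1 only (4.2%, against 1.44% and 1.49%), and the looser TCACNCNAC, which contains it, also in Nsdhl (8.3%, against 3.15% and 3.41%). A match of letters is not a measured site.

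Over 8 h of α-amanitin most of the cholesterol enzymes, 13 of 19, rose relative to other RNA in WT and in both clones, and none of the 30 genes was called lower in any line. Calls below are from edgeR's quasi-likelihood test, with p-values adjusted by Benjamini and Hochberg's method over all genes tested and a false discovery rate (FDR) under 0.05. In WT at 8 h, 20 of the 30 genes were called higher and 0 lower, with a median log2 difference of 0.39. Among all genes tested, 25.7% were called higher and 25.4% lower, with a median of 0.01. With WT replicates 1 and 2 alone 21 genes were higher and 2, Srebf1 and Scap, lower. In clone 2, 22 were called higher and 0 lower (median 0.63), against 12.6% and 15.8% of all genes. In clone 4, 19 were called higher and 0 lower (median 0.51), against 8.57% and 10.9%. Called higher in all 3 lines were 15 genes, Acat2, Hmgcs1, Mvk, Mvd, Idi1, Fdft1, Sqle, Lss, Cyp51, Msmo1, Hsd17b7, Sc5d, Dhcr7, Acly and Fasn. The share of all genes called higher in all 3 lines was not counted, but it cannot exceed the 8.57% of clone 4. A further 5 (Fdps, Nsdhl, Srebf1, Srebf2, Insig1) were called in 2 lines, and 6 (Ggps1, Scap, Insig2, Stard4, Acaca, Scd2) in 1 line. Pmvk, Tm7sf2, Ebp and Scd1 were called in none.

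**Figure D1:**
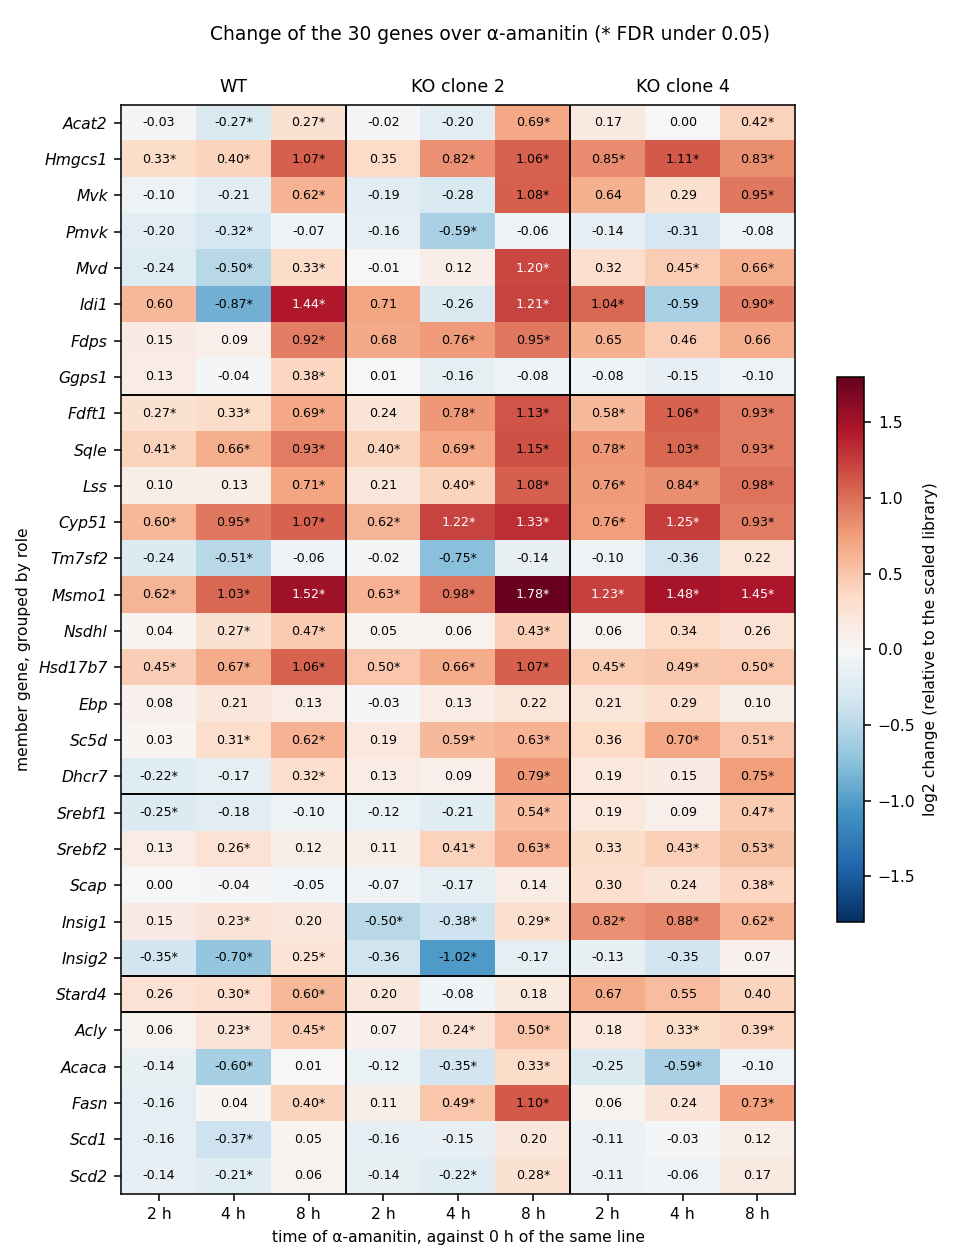
Log2 change against 0 h for each of the 30 genes (rows, by role) at 2, 4 and 8 h in WT, KO clone 2 and KO clone 4 (columns); colour and number give the log2 difference and a star an FDR under 0.05. The 8 h columns hold stars for 20, 22 and 19 genes, all of them higher, whereas falls with a star stand in the 2 h and 4 h columns.

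The calls at 2 and 4 h went both ways. At 2 h in WT, 6 genes were called higher and 3 lower, against 14.1% and 13.7% of all genes. At 2 h in clone 2 the counts were 4 and 1 (all genes 6.04% and 5.81%) and in clone 4 they were 9 and 0 (all genes 3.57% and 2.75%). Sqle, Cyp51, Msmo1 and Hsd17b7, which all act between squalene and cholesterol, were called higher at 2 h in all 3 lines, although Hsd17b7 in clone 4 was not under scaling by library size (FDR 0.0545) or without the low-count filter (FDR 0.111). At 4 h, 12 genes were called higher and 9 lower in WT (all genes 24.8% and 27.4%), 12 and 6 in clone 2 (20.3% and 21.8%) and 12 and 1 in clone 4 (12% and 11.2%). The share of all genes called higher at 2 h in all 3 lines was not counted, but it cannot exceed the 3.57% of clone 4. The 2 h counts depend on the fit. With library size alone as the scaling, WT at 2 h had 5 higher and 9 lower. Over all genes 25.5% of the WT calls at 2 h were then higher, against 50.7% in the main fit. When each clone was fitted on its own, 13 genes were called in clone 2 and 15 in clone 4. Calls over all genes rose too in both of these fits, from 1878 to 3586 in clone 2.

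Between 4 and 8 h, a comparison added after the data were seen, 23 genes rose and 0 fell in WT (all genes 22.4% and 22.9%), 21 rose and 0 fell in clone 2 (17.9% and 20.2%), and 9 rose and 1 fell in clone 4 (14% and 17.2%). The 9 genes called lower at 4 h in WT, Acat2, Pmvk, Mvd, Idi1, Tm7sf2, Insig2, Acaca, Scd1 and Scd2, were all called higher again at 8 h against 4 h. For Tm7sf2 and Pmvk this depended on the fit: with DESeq2 neither return was called (FDR 0.0612 and 0.0906), and with WT replicates 1 and 2 alone neither the fall at 4 h (FDR 0.41 and 0.0804) nor the return was. The WT rises at 4 h of Stard4, Sc5d, Nsdhl and Insig1 were not called with replicates 3 and 4 alone (FDR 0.235, 0.0956, 0.308 and 0.513), nor that of Srebf2 with replicates 1 and 2 alone (FDR 0.308). In clone 2, 5 of the 6 genes lower at 4 h were called higher at 8 h against 4 h (Pmvk, Insig1, Insig2, Acaca, Scd2), and in clone 4 the only gene lower at 4 h, Acaca, was too. These steps share the 4 h libraries, so a low 4 h level enters both. The WT share of genes lower at 4 h was near that of all genes (27.4%). How many of all genes lower at 4 h were called higher again was not counted, so the return cannot be called particular to these genes. In clone 4 the 11 genes from squalene to cholesterol had a median log2 difference of −0.09 between these times. Dhcr7 was higher (0.60) and Cyp51 lower at 8 h than at 4 h (log2 −0.32, SE 0.0884, edgeR FDR 0.00507).

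In the mevalonate pathway 7 of 8 genes were called higher at 8 h in WT, 6 in clone 2 and 5 in clone 4, against 25.7%, 12.6% and 8.57% of all genes. Idi1, the isomerase that makes dimethylallyl pyrophosphate, had the largest WT rise of the group but few reads: its counts fell to 2 in the poorest library. It was at 3.79, 1.49, 3.31 and 3.48 CPM at 0 h in WT, at 0.886, 0.559, 2.35 and 1.70 CPM at 4 h, and at 5.99, 7.79, 7.52 and 8.6 CPM at 8 h. All WT libraries at 8 h were above all at 0 h, and the 4 h libraries were mostly the lowest. Its 8 h change was 1.44 on the log2 scale in WT (2.71-fold, SE 0.214, edgeR FDR 1.33e-06), 1.21 in clone 2 and 0.90 in clone 4. The clone 4 call (FDR 0.0412) was lost with DESeq2 (FDR 0.0764), with a replicate block (FDR 0.0527) and without either 8 h replicate. Fdps, the farnesyl pyrophosphate synthase, was nearly as low, at 2.25 to 4.74 CPM at 0 h and 4.90 to 5.33 CPM at 8 h in WT. Counts of both may depend on how reads shared with any near-identical copies were assigned, which is not given in the sources used here.

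Hmgcs1, the synthase that commits acetyl-CoA to HMG-CoA, was far more abundant. It was at 119.7, 92.7, 135 and 151 CPM at 0 h in WT and at 259.5, 274, 241 and 274.5 CPM at 8 h. Every 8 h library was above every 0 h library. The rise was 2.11-fold in WT (log2 1.07, SE 0.105, edgeR FDR 1.17e-08) and 2.08-fold in clone 2. In clone 4 it was at 139 CPM at 0 h, at 291 and 308 CPM at 4 h and at 244 and 250.4 CPM at 8 h, so its highest level there came at 4 h.

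Mvd, the decarboxylase that yields isopentenyl pyrophosphate, first fell and then rose in WT. Its WT libraries were at 19.9, 17.5, 14.5 and 15.6 CPM at 0 h, at 12.8, 12.3, 11.4 and 10.4 CPM at 4 h, and at 19.0, 22, 18.8 and 22.5 CPM at 8 h. The 4 h libraries were all below the 0 h ones, whereas 0 h and 8 h overlapped. Clone 2 began at 10.3 and 9.91 CPM, was at 10.5 and 11.6 CPM at 4 h and reached 25.2 and 21.5 CPM at 8 h. The 8 h change was 0.33 in WT (log2, SE 0.0986, edgeR FDR 0.0053) and 1.2 in clone 2 (SE 0.134, FDR 2e-08). With WT replicates 1 and 2 alone the WT change was 0.18 and was not called (FDR 0.219).

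The other mevalonate genes differed in course. Acat2, which joins acetyl-CoA units, fell at 4 h in WT (log2 −0.27) and was higher at 8 h in all lines, by 0.27 in WT, 0.69 in clone 2 and 0.42 in clone 4. Mvk, the mevalonate kinase, was at −0.21 at 4 h in WT without a call and was higher at 8 h by 0.62, 1.08 and 0.95. Pmvk, the next kinase, was 0.32 lower at 4 h in WT and 0.59 lower in clone 2, and ended at −0.07, −0.06 and −0.08 without a call. Ggps1, which makes geranylgeranyl pyrophosphate for protein prenylation, was called at 8 h in WT only (0.38). There the 0 h libraries were at 26.3, 24.9, 37.9 and 38.1 CPM against 40.2 to 43.9 CPM at 8 h, and with replicates 3 and 4 alone the change was 0.12 (FDR 0.283).

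**Figure D2:**
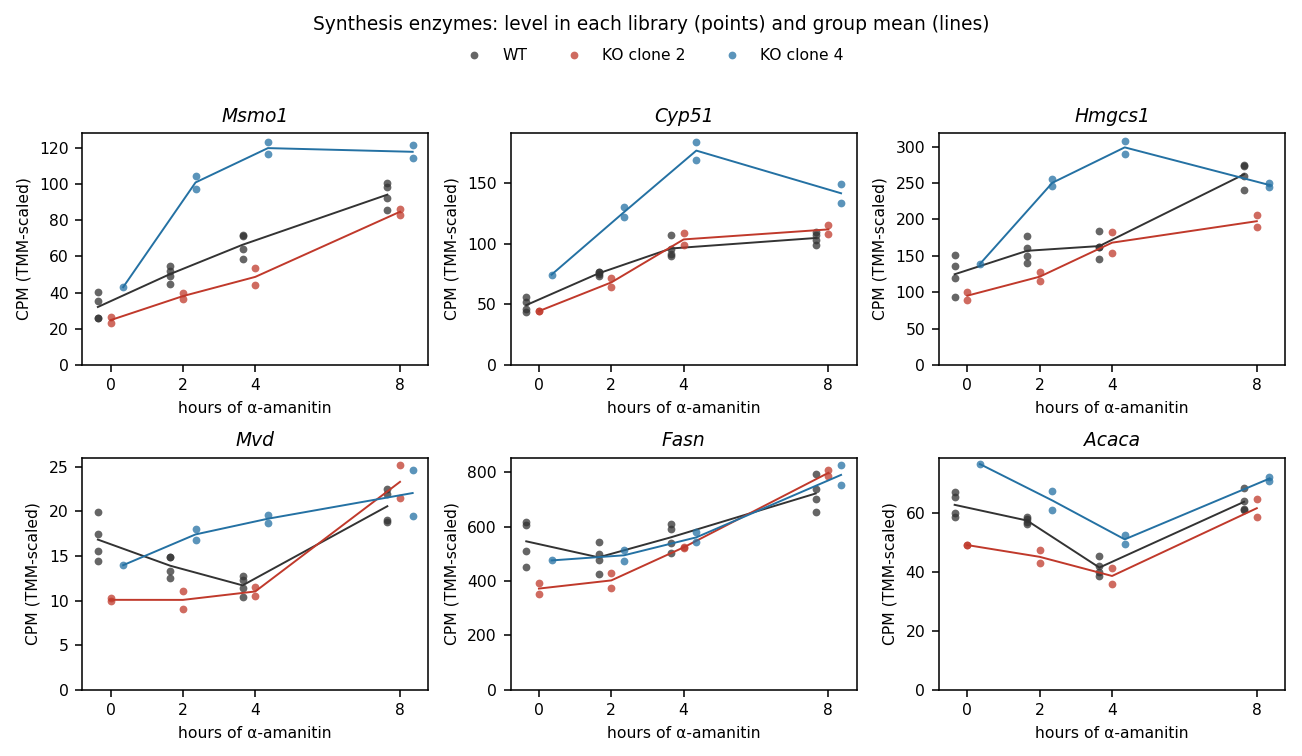
Level of 6 enzymes in each library (points, TMM-scaled CPM, axes from 0) and the group mean (lines) over hours of α-amanitin in WT (grey), KO clone 2 (red) and KO clone 4 (blue); points are set slightly apart so that lines do not cover each other. Msmo1 and Cyp51 climb from the start, while Mvd and Acaca in WT are lowest at 4 h, and Msmo1, Cyp51 and Hmgcs1 in clone 4 reach their 8 h level or more by 4 h.

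From squalene to cholesterol, 9 of 11 genes were called higher at 8 h in WT, 9 in clone 2 and 8 in clone 4, against 25.7%, 12.6% and 8.57% of all genes. The medians of the 11 genes were 0.69, 1.07 and 0.75 on the log2 scale. Msmo1, the methyl sterol oxidase that strips methyl groups from lanosterol's product, rose most in every line. In WT it was at 26.1, 26.1, 40.6 and 35.4 CPM at 0 h, at 44.8, 52.2, 54.8 and 49.3 CPM at 2 h, at 64.0, 58.4, 71.5 and 72.0 CPM at 4 h, and at 92.3, 101, 85.6 and 98.2 CPM at 8 h. The ranges of the 4 times did not overlap, and each time was above the one before. The 8 h rise was 2.87-fold in WT (log2 1.52, SE 0.101, edgeR FDR 7.9e-13), 3.44-fold in clone 2 and 2.74-fold in clone 4.

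Cyp51, the lanosterol demethylase, was at 43.8, 45.9, 55.7 and 51.7 CPM at 0 h in WT and at 107, 103, 99.2 and 109.8 CPM at 8 h, and had covered most of that distance by 4 h (90.2 to 107 CPM). Its 8 h and 0 h libraries did not overlap. The rise was 2.10-fold in WT (SE 0.0668 on the log2 scale, edgeR FDR 4.22e-15) and 2.52-fold in clone 2. In clone 4 Cyp51 was at 74.4 CPM untreated, above every WT library at 0 h, reached 184 and 169 CPM at 4 h and stood at 149 and 134 CPM at 8 h.

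Hsd17b7, a sterol ketoreductase, was among the genes called at every time in each line. It went from 13.0, 15.9, 18.6 and 18.4 CPM to 34.2, 35.7, 32.9 and 38.5 CPM in WT (2.08-fold, SE 0.0828, edgeR FDR 1.28e-12) and rose 2.10-fold in clone 2. Sqle, the squalene epoxidase and an early control point of the branch, went from 59.0 to 69.3 CPM up to 117 to 128 CPM in WT. Its log2 change was 0.93 in WT, 1.15 in clone 2 and 0.93 in clone 4. Fdft1, squalene synthase, rose by 0.69, 1.13 and 0.93, and Lss, which folds squalene epoxide into lanosterol, by 0.71, 1.08 and 0.98. Fdft1 overlaps Ctsb in the annotation, and the strand setting of the counting is not given in the sources used here.

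The late steps were less uniform. Sc5d, the desaturase of the C5 bond, rose by 0.62, 0.63 and 0.51, and Dhcr7, the last reductase, by 0.32, 0.79 and 0.75. Its 2 h value in WT was −0.22 (edgeR FDR 0.0461), a call lost with RLE scaling (FDR 0.0675), DESeq2 (FDR 0.101) and WT replicates 1 and 2 alone (FDR 0.343). Nsdhl, a demethylating dehydrogenase, was called in WT (0.47) and clone 2 (0.43) and was at 0.26 without a call in clone 4. Ebp, the sterol isomerase, was at 0.13, 0.22 and 0.10, and Tm7sf2, a sterol reductase that shares its reaction with another protein, at −0.06, −0.14 and 0.22, none of them called.

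Among the regulators, 1 of 5 was called higher at 8 h in WT, 3 in clone 2 and 4 in clone 4, against 25.7%, 12.6% and 8.57% of all genes, so the WT share was no higher than that of all genes. Srebf2, the SREBP of the cholesterol genes, was at 294, 272, 224.5 and 212 CPM at 0 h in WT and at 264, 271.5, 261 and 291 CPM at 8 h. These ranges overlapped, and the change of 0.12 was not called (SE 0.068, edgeR FDR 0.125). Replicates 3 and 4 alone gave 0.33 (FDR 1.31e-05). In clone 2 Srebf2 went from 241 and 228.5 CPM to 363.5 and 361 CPM (log2 0.63, FDR 5.01e-06), and in clone 4 from 209 CPM to 306 and 298 CPM (0.53, FDR 0.00139), with all 8 h libraries above those at 0 h.

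Srebf1, the SREBP tied to fatty acid genes, was at 122, 127, 101.5 and 90.9 CPM at 0 h in WT and at 95.5, 107, 98.6 and 109 CPM at 8 h. The ranges overlapped, and the change of −0.10 was not called (FDR 0.318), although replicates 1 and 2 alone gave −0.31 (FDR 0.000345). Clone 2 went from 88.6 and 78.8 CPM to 127.7 and 116.5 CPM (0.54, edgeR FDR 0.000393), nearly all of it after 4 h, when it stood at 72.8 and 72.0 CPM. Clone 4 went from 73.2 CPM to 108 and 95.0 CPM (0.47, FDR 0.0154), a call lost without its first 8 h replicate (FDR 0.13). Srebf1 overlaps Rai1 in the annotation.

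Scap, the escort, was in WT at 96.7, 90.6, 78.0 and 72.2 CPM at 0 h and 83.6, 75.4, 77.7 and 86.1 CPM at 8 h (log2 −0.05, edgeR FDR 0.597). Replicates 1 and 2 alone gave −0.22 (FDR 0.00808), and the ranges of all 4 overlapped. It was at 80.6 and 74.9 CPM and then 90.3 and 80.8 CPM in clone 2 (0.14, FDR 0.333). In clone 4 it went from 64.1 CPM to 87.1 and 79.9 CPM (0.38, FDR 0.0264), which was not called without the first 8 h replicate (FDR 0.16).

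Insig1 (chr5:28071412-28078662, GRCm38) separated clone 2 from the other lines at every time. It was at 43.4, 39.5, 48.9 and 45.8 CPM in untreated WT and at 48.3 CPM in clone 4, but at 270.3 and 244 CPM in clone 2. No library of the other lines, at any time, was above 91.7 CPM. The untreated difference between clone 2 and WT was 5.79-fold (log2 2.53, SE 0.0903, edgeR FDR 2.46e-22), and that between clone 4 and WT was not called (log2 0.12, FDR 0.476). Over time WT stayed between 44.6 and 59.6 CPM at 8 h (0.20, FDR 0.0561), with a call in replicates 1 and 2 alone (0.27, FDR 0.0492) and with a replicate block (FDR 0.0464). Clone 2 fell to 194 and 171 CPM at 2 h (−0.50, FDR 0.00117) and came back to 330.2 and 301 CPM at 8 h (0.29 against 0 h, FDR 0.0295), a call lost under scaling by library size (FDR 0.0706) and without replicate 2 at 0 h or replicate 1 at 8 h. Clone 4 was at 87.5 and 83.4 CPM at 2 h and 83.5 and 65.0 CPM at 8 h (0.62, FDR 0.00165).

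Insig2 (chr1:121304353-121332662) was low at 4 h and higher again at 8 h in WT and clone 2. In WT it was at 21.8, 24.8, 31.7 and 34.9 CPM at 0 h, at 17.3, 19.0, 14.6 and 20.7 CPM at 4 h, and at 34.5, 34.1, 35.6 and 33.5 CPM at 8 h. The 4 h libraries were below all others. Clone 2 went from 41.5 and 41.8 CPM to 20.1 and 20.9 CPM at 4 h and 33.9 and 39.8 CPM at 8 h. The 4 h change was −0.70 in WT (SE 0.107, edgeR FDR 1.24e-06) and −1.02 in clone 2 (FDR 2.32e-07), and −0.35 in clone 4 without a call. The WT call at 8 h (0.25, FDR 0.0312) was lost with library size scaling (FDR 0.113), without the low-count filter (FDR 0.0994) and with replicates 3 and 4 alone (0.05, FDR 0.713).

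**Figure D3:**
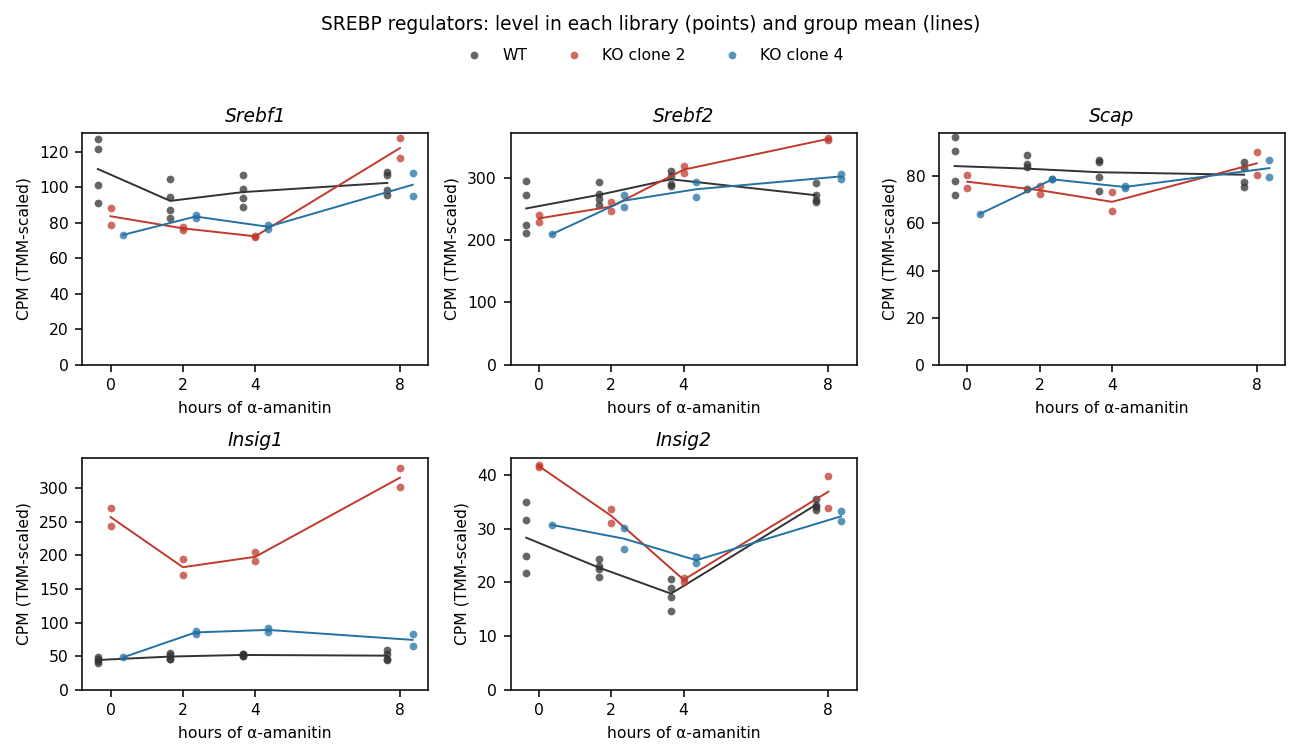
Level of the 5 SREBP regulators in each library (points, TMM-scaled CPM, axes from 0) and the group mean (lines) over hours of α-amanitin in WT (grey), KO clone 2 (red) and KO clone 4 (blue). Insig1 in clone 2 lies between 171 and 330.2 CPM at all times while no WT library passes 59.6 CPM, and the mean of Insig2 is lowest at 4 h in every line.

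Stard4, which carries cholesterol between membranes, was at 38.2, 48.9, 73.0 and 70.8 CPM in untreated WT and at 86.3, 90.3, 93.8 and 90.7 CPM at 8 h. All 8 h libraries were above all at 0 h, where replicates 1 and 2 were the low ones. The change was 0.60 in WT (SE 0.12, edgeR FDR 0.000232), and 0.18 in clone 2 and 0.40 in clone 4 without a call.

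The fatty acid genes were split. Acly, which makes cytosolic acetyl-CoA from citrate for both pathways, was at 382, 417, 408 and 402 CPM at 0 h in WT and at 551, 553, 538 and 566 CPM at 8 h, with no overlap. It rose 1.37-fold in WT (log2 0.45, SE 0.0445, edgeR FDR 2.36e-10), 1.42-fold in clone 2 and 1.31-fold in clone 4. Fasn, the fatty acid synthase, was at 607, 617, 509 and 451 CPM at 0 h in WT and at 653, 739, 699.8 and 795 CPM at 8 h. In WT the rise was 1.32-fold (FDR 0.000256; FDR 0.0552 with replicates 1 and 2 alone). Clone 2 started lower, at 394 and 350.5 CPM, ended at 786 and 809.9 CPM and so rose 2.14-fold (FDR 7.81e-08), and clone 4 rose 1.66-fold.

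Acaca, the acetyl-CoA carboxylase that starts fatty acid synthesis, was lower at 4 h in each line. In WT it was at 58.8, 67.3, 65.6 and 60.1 CPM at 0 h, at 38.8, 39.9, 45.6 and 42.0 CPM at 4 h and at 61.1, 64.4, 61.6 and 68.8 CPM at 8 h. The 4 h libraries were below all others, and 0 h and 8 h overlapped. The 4 h change was −0.60 in WT (SE 0.0658, edgeR FDR 1.27e-09), −0.35 in clone 2 and −0.59 in clone 4. The 8 h change was called in clone 2 only (0.33), and not without its second 8 h replicate (FDR 0.0982). Acaca overlaps Tada2a. Scd1 and Scd2, desaturases that put the double bond into stearate, were 0.37 and 0.21 lower at 4 h in WT. At 8 h Scd1 was at 0.05, 0.20 and 0.12 and Scd2 at 0.06, 0.28 and 0.17, with a call for Scd2 in clone 2 alone. WT replicates 1 and 2 alone gave 0.21 for Scd1 (FDR 0.0227) and 0.16 for Scd2 (FDR 0.0136), while replicates 3 and 4 gave −0.08 and −0.06 without a call.

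Per gene length, in TPM (counts divided by gene length and scaled to the same total in each library), Scd2 was the most abundant of the 30 genes in untreated WT at 1004 ± 190 TPM (SD, n = 4), before Fasn at 181 ± 14.8 and Acly at 174 ± 20.5, which did not differ beyond their spread. Srebf2 followed at 112 ± 7.00 TPM and Hmgcs1 at 102 ± 27.9 TPM. The lowest were Tm7sf2 at 3.78, Idi1 at 3.71 and Fdps at 2.60 TPM. The deposited lengths cannot be those of 1 transcript. For Tm7sf2 the length was 16724 bases, more than the whole gene spans (chr19:6062821-6067850), and that of Fasn, 21374 bases, also exceeds its gene. This order of genes rests on those lengths and may differ with transcript lengths. Together the 30 genes averaged 2395, 1855, 2391.5 and 2939 TPM at 0, 2, 4 and 8 h in WT. At the same times they averaged 2577, 2093, 2480 and 3514 TPM in clone 2. In clone 4 the sums were 2344, 2162, 2893 and 3151 TPM. The sum was lowest at 2 h in each line, and Scd2 was its largest part in untreated WT.

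Before α-amanitin, 17 of the 30 genes in clone 2 and 11 in clone 4 were called different from WT, near the shares of all genes. Ebp and Scd1 were higher and Dhcr7 and Srebf1 lower than in WT in both clones. How many of all genes were called the same way in both clones was not counted. Compared with WT, 7 genes were called higher and 10 lower in clone 2, against 30.6% and 29.4% of all genes. In clone 4, 8 were higher and 3 lower, against 19.7% and 18.4%. Both sets of counts share the 4 WT libraries, and clone 4 was 1 library. Scaling by library size gave 6 and 17 in clone 2 and 6 and 8 in clone 4. The members called higher in clone 2 were Insig1, Scd1 (2.23-fold), Ebp (1.95-fold), Stard4 (1.90-fold), Insig2 (1.44-fold), Pmvk (1.33-fold) and Acly, whose sign turned with library size scaling (log2 0.14 and then −0.01). Lower in clone 2 were Mvd (log2 −0.70), Fasn (−0.55), Fdps (−0.55), Msmo1 (−0.41), Acat2 (−0.41), Hmgcs1 (−0.39), Srebf1 (−0.39), Acaca (−0.37), Sqle (−0.30) and Dhcr7 (−0.27). The Fdps call was lost with DESeq2 (FDR 0.0603) and without the filter (FDR 0.0541), the Acly call too without the filter (FDR 0.0981), and WT replicate 1 stood apart for Fdps at 4.74 CPM against 2.25 to 2.62 CPM. In clone 4 Hsd17b7 (log2 1.03), Scd1 (0.74), Nsdhl (0.69), Cyp51 (0.58), Ebp (0.56), Sc5d (0.53), Msmo1 (0.39) and Acaca (0.28) were higher and Srebf1 (−0.58), Dhcr7 (−0.57) and Scap (−0.38) lower. With library size scaling Msmo1 and Acaca were not called in clone 4 (FDR 0.145 and 0.142), nor was Acaca with a replicate block (FDR 0.0897) or Msmo1 without WT replicate 1 (FDR 0.0737) or 2 (FDR 0.11). The Msmo1 call in clone 2 was lost without its first library (FDR 0.116).

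Scd1 shows how far apart the lines stood. It was at 56.9, 62.8, 72.0 and 76.4 CPM in WT, at 114 CPM in clone 4 and at 150 and 153 CPM in clone 2, and no WT library reached a clone's level. Marker genes moved with the lines. The 7 endoderm markers summed to 11760 to 13210 CPM in untreated WT, 41130 to 42100 CPM in clone 2 and 18070 CPM in clone 4. All 7 were above the WT mean in both clones. The 7 fibroblast markers summed to 947 to 1473 CPM in WT, 689 CPM in each clone 2 library and 2423 CPM in clone 4, where 6 of 7 were above the WT mean; Lum was below 1 CPM in each line and none was at 0. The 4 neuroectoderm markers summed to 253 to 301 CPM in WT, 62.1 to 63.3 CPM in clone 2 and 268 CPM in clone 4, and the 6 pluripotency markers to 393 to 437, 612 to 668 and 503 CPM. In clone 2 the markers of a list did not all go the way of its sum. Sox2 (61.7 against 78.8 CPM) and Esrrb (37.5 against 55.2 CPM) were below the WT mean, unlike the other pluripotency markers. Of the fibroblast markers only Col1a1 and Col3a1 were below it, and of the neuroectoderm markers only Sox1 was above it. The part of these cell types in the differences between lines was not tested.

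**Figure D4:**
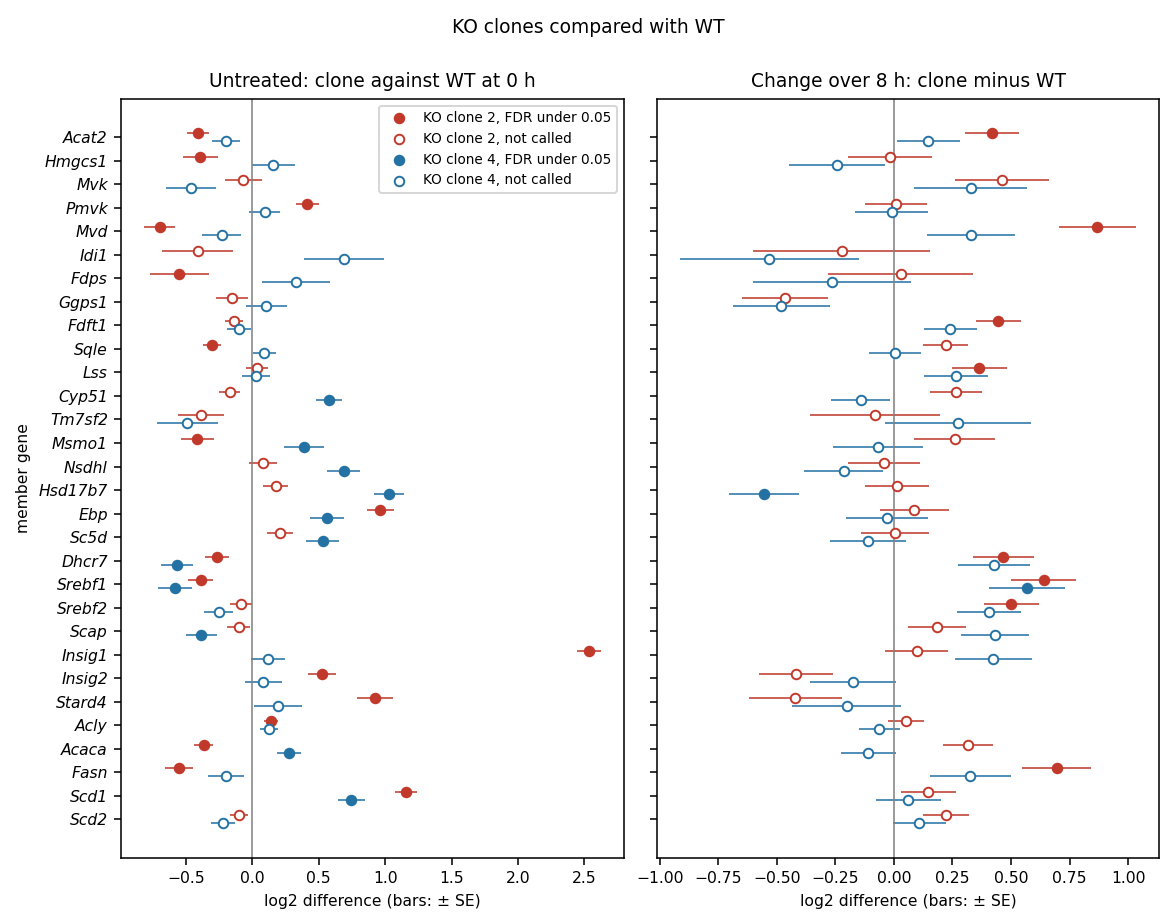
Left, log2 difference of each clone from WT at 0 h; right, the difference between the clone's and WT's log2 change over 8 h, for the 30 genes (rows); points are estimates, bars ± SE, filled points an FDR under 0.05. Insig1 in clone 2 stands alone at 2.53 on the left, and on the right the filled points of clone 2 are all above 0.

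The 8 h change itself was larger in clone 2 than in WT for 8 genes and smaller for 0, against 3% and 4.42% of all genes. They were Mvd (difference of log2 changes 0.87, SE 0.166, edgeR FDR 0.000688), Fasn (0.69), Srebf1 (0.64), Srebf2 (0.50), Dhcr7 (0.47), Fdft1 (0.45), Acat2 (0.42) and Lss (0.37, FDR 0.0493). The Lss call was lost with a replicate block (FDR 0.0519) and without the filter (FDR 0.0533). None of these differences was refitted on the WT replicate pairs. The WT changes of Srebf1 and Srebf2 at 8 h, given above, depended on the pair, and so may their differences from clone 2. Of these, 5 (Mvd, Fasn, Srebf1, Dhcr7, Acat2) had begun lower in clone 2 than in WT, and both comparisons use the 0 h libraries. In clone 4, 1 gene changed more than in WT and 1 less, against 1.81% and 2.28%: Srebf1 (0.57, FDR 0.0421) and Hsd17b7 (−0.56, FDR 0.0321), and neither call held without either clone 4 library at 8 h. Scaling by library size gave 3 and 0 there.

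The wider pathway moved both ways. Of 55 related genes, all tested, 26 were higher and 16 lower at 8 h in WT (median log2 0.15), 13 and 8 in clone 2 (0.07) and 9 and 6 in clone 4 (0.08). All genes gave 25.7% and 25.4% in WT, 12.6% and 15.8% in clone 2, and 8.57% and 10.9% in clone 4. In WT the 12 genes of SREBP processing and sterol-regulated degradation gave 6 and 2, the 13 of sterol uptake, transport and efflux 4 and 5, the 8 of the isoprenoid branches 5 and 2, and the 22 of fatty acid supply, elongation and activation 11 and 7. The largest rises in WT were Lrp8, a lipoprotein receptor (log2 0.90), Hsd17b12, an elongation enzyme (0.84), Me1, the malic enzyme that supplies NADPH (0.63), Acsl4, an acyl-CoA synthetase (0.61) and Rnf139, a ubiquitin ligase (0.57). Untreated WT replicates 1 and 2 were the low ones for Acsl4, at 59.0 and 58.4 CPM against 97.5 and 93.5 CPM, with 118 to 121 CPM at 8 h. Rnf139 was at 19.0 and 9.65 CPM in them, at 24.3 and 23.3 CPM in replicates 3 and 4, and at 26.1 to 29.2 CPM at 8 h. The largest falls were Acacb, the mitochondrial carboxylase (−0.83), Vldlr, a lipoprotein receptor (−0.67), Abcg1, a sterol exporter (−0.63), Lpin1, a phosphatidate phosphatase (−0.56) and Acss2, which activates acetate (−0.55). Lrp8 also rose in clone 2 (1.91) and clone 4 (1.19), and Vldlr also fell (−1.42 and −0.90).

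The authors' symbol lists from RNA immunoprecipitation of CAPRIN1 give no values or direction. The list named CNT against RA held 8 of the 30 genes (26.7%, against 13% of the genes tested), Hmgcs1, Cyp51, Dhcr7, Srebf1, Acly, Fasn, Scd1 and Scd2. The list named 2I against RA held 7 (23.3%, against 14.9%), Hmgcs1, Srebf1, Acly, Acaca, Fasn, Scd1 and Scd2. Both shares are set against all genes tested, whatever their level. The share among genes of like abundance was not counted.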

How the data were processed

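Polyadenylated RNA of R1 ESCs and Caprin1 KO clones was sequenced from stranded libraries, per the labels' protocols. The authors deposited raw counts per gene, 1 table per time, with a further column of another kind for gene length, and other tables that list gene symbols from RNA immunoprecipitation. The submitters' processing notes name Cuffdiff, Cufflinks, DESeq2, TopHat, STAR 2.4.0.1 and FastQC 0.11.9 and the builds mm10 and GRCm38. How reads were counted, with which strand rule and annotation, is not given in the sources used here. Of 51520 lines, 110 repeats of an identifier were dropped. KO clone 4 replicate 1 at 0 h is not analysed here, having no matching column.

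The 31 libraries were fitted together as 12 groups of line and time in edgeR 4.0.16 (R 4.3.3; TMM scaling, filterByExpr, robust quasi-likelihood, 19 residual degrees of freedom). Each contrast was adjusted over 15850 genes and called at an FDR under 0.05. The SE is the log2 difference divided by the square root of F. Levels are TMM-scaled CPM; TPM used the deposited lengths. The scripts were tested on simulated data. Promoters came from RefSeq, GRCm38.p6. The regulators and the largest called rise of each role group are given in every library, the rest by range; of related genes the 5 largest called rises and falls in WT at a mean of at least 5 CPM are named. The members and lists were chosen with earlier results of these data known. Alternatives were RLE and library-size scaling, no filter, DESeq2 1.42.0, a replicate block, separate fits, WT replicate pairs and leaving out each library.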

Additional observations from a re-analysis of the deposited data

Results flagged for a closer look

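In 4 of 120 groups of 4 WT libraries (each gene at each time), 1 library stood apart from the others, and chance alone gives this in about 1 in 20 groups. Mvk at 4 h was at 16.83 CPM in replicate 1 against 12.4 to 13.2 CPM in the others. Fdps at 0 h was at 4.739 CPM in replicate 1, the shallowest library of that time, against 2.25 to 2.62 CPM. Nsdhl at 4 h was at 24.01 CPM in replicate 2, the shallowest library of all, against 19.5 to 20.1 CPM. Scd2 at 8 h was at 1123 CPM in replicate 3 against 1096 to 1100.0 CPM, a small gap between near-equal values.

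For 10 results the 8 h change differed between a clone and WT by the test of that difference (edgeR, FDR under 0.05). In clone 2 it was larger for Acat2 by 0.42, Mvd by 0.87, Fdft1 by 0.45, Lss by 0.37, Dhcr7 by 0.47, Srebf1 by 0.64, Srebf2 by 0.50 and Fasn by 0.69 on the log2 scale. In clone 4 it was larger for Srebf1 by 0.57 and the difference was −0.56 for Hsd17b7. None of these differences was refitted on the WT replicate pairs. Untreated endoderm markers were higher than in WT in both clones, most in clone 2, and the sum of fibroblast markers was higher in clone 4. Their part in these differences was not tested.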

How the results depend on the processing

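The counts of genes called at 8 h held 0 genes lower under each alternative run, except 2 in WT replicates 1 and 2 only and 1 in WT without replicate 4 at 0 h. They ran, over leaving out 1 library, from 19 to 21 in WT, 18 to 21 in clone 2 and 13 to 18 in clone 4. Counts that moved by over 1.5 times were WT at 2 h (9; 14 with library size only and 14 with WT replicates 1 and 2 only), clone 2 at 2 h (5; 13 fitted alone), clone 4 at 2 h (9; 15 fitted alone) and clone 4 at 8 h against 4 h (10; 16 fitted alone). The cause was not tested. Leaving out 1 library gave 7 to 11 for WT at 2 h, 2 to 5 for clone 2 at 2 h (2 without replicate 2 at 2 h), 6 to 7 for clone 4 at 8 h against 4 h (6 without either 4 h replicate) and 0 to 5 for the difference in 8 h change between clone 4 and WT, main count 2. That count was 0 without either clone 4 library at 8 h, 1 without WT replicate 1 at 0 h or replicate 1, 3 or 4 at 8 h, 5 without WT replicate 3 at 0 h and 4 without replicate 4. The other counts ran from 19 to 23 (WT 4 h), 20 to 22 (WT 8 h against 4 h), 14 to 16 (clone 2 4 h), 17 to 21 (clone 2 8 h against 4 h), 7 to 7 (clone 4 2 h), 10 to 13 (clone 4 4 h), 12 to 21 (clone 2 against WT), 12 to 14 (clone 4 against WT) and 6 to 12 (difference in 8 h change, clone 2). Leaving out the lone clone 4 library at 0 h gives no value; where 1 library was left in a group, it was taken to vary like the others. The only reversed value was Acly in clone 2 against WT at 0 h (−0.0134 with library size only, main 0.14). Library size scaling moved the median log2 difference of all genes most in clone 2 against WT at 0 h, from 0.0036 to −0.15, and in clone 2 at 4 h from −0.06 to −0.20; under it the WT 4 h split was 9 higher and 11 lower and that of clone 2 was 10 and 10. Depth limits Idi1, Fdps and Tm7sf2 most, with 2, 15 and 13 counts in their poorest libraries.

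With a replicate block the counts were 12, 22 and 21 for WT at 2, 4 and 8 h, 22 for clone 2 and 18 for clone 4 at 8 h, 18 and 10 for the clones against WT and 7 and 2 for the differences in 8 h change, all within 1.5 times the main counts. Deviations of same-numbered WT libraries had correlations of −0.04 to 0.21, with 3 of 24 pairs over 0.1. Those of differently numbered WT libraries ran from −0.28 to 0.225, with 4 of 72 pairs over 0.1. The numbers were not taken to pair samples.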
